A study of Homo sapiens with 9 samples.

Results

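The E2F and retinoblastoma family is the group of transcription factors and pocket proteins that sets when a cell enters S phase. The 10 genes described here are E2F1 to E2F8, RB1 and RBL1, taken by their symbols from a table of 30017 genes. All 10 passed the filter on low counts, among 12712 genes tested. Levels were measured by RNA-seq in MOLM13, a human acute myeloid leukemia line, in 3 groups of 3 libraries. Cells were transduced with a pLKO-GFP lentivirus that carried a control hairpin (sh-Control) or a hairpin against the RNA helicase DDX41 (shDDX41 #1 or shDDX41 #2), and GFP-positive cells were sorted on day 4. All groups therefore share the line, the vector and the sort, and each knockdown arm is 1 hairpin, so the sequence of a hairpin and the depth of its knockdown cannot be told apart. The labels do not say whether libraries A, B and D of a group came from separate cultures, so p-values measure the spread between these libraries, which may be technical.

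E2F proteins bind the promoters of genes for DNA replication and division, mostly as dimers with a DP protein. E2F1, E2F2 and E2F3 are known as activators, E2F4 and E2F5 as repressors that work with pocket proteins, E2F6 as a repressor that joins a Polycomb complex, and E2F7 and E2F8 as atypical repressors that bind without a DP partner. The pocket proteins RB1, RBL1 (p107) and RBL2 (p130) hold E2F factors inactive until cyclin-dependent kinases phosphorylate them, and several family genes are themselves E2F targets.

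The promoters of 5 members are shown because family genes are known as E2F targets. Of these windows, 4 hold a match to the exact E2F spellings searched, and that of E2F7 does not. Each line gives the 100 bases before the RefSeq start site (GRCh38.p14), read 5′ to 3′ on the strand of the gene, with the E2F letters in capitals. The letters searched were TTTCCCGC, TTTCGCGC, TTTGCCGC and TTTGGCGC on both strands. Other spellings that E2F proteins may bind were not searched, so a window without a match may still hold a site.
E2F1 promoter, chr20:33686386-33686485, minus strand: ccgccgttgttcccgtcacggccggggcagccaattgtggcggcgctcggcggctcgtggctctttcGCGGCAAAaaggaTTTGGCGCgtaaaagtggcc
E2F2 promoter, chr1:23531234-23531333, minus strand: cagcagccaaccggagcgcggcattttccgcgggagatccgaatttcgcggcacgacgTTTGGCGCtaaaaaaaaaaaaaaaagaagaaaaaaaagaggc
E2F3 promoter, chr6:20401779-20401878, plus strand: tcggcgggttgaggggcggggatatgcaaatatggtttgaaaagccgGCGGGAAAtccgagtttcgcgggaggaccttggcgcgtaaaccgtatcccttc
RBL1 promoter, chr20:37095998-37096097, minus strand: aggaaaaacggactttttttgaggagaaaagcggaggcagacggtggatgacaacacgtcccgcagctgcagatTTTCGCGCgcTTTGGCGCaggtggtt
E2F7 promoter, chr12:77065570-77065669, minus strand: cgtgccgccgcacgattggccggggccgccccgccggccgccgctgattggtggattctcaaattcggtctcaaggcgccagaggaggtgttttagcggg
These letters were present in 1164 of 35116 promoter windows of 300 bases in the whole annotation, or 3.31%. Among the members, 8 had a window, and 4 of these 8 genes held the letters. Counted by window, as for the annotation, this was 4 of 9 (44.4%), since E2F3 had a further window without a match. RBL1 held 2 matches, 26 and 16 bases before its start, and E2F1 held 2, of which the nearer lay 20 bases before its start. E2F2 and E2F3 held 1 each, 42 and 53 bases before the start. The E2F7 window held no match but held CCAAT, the letters of the NF-Y box, 4 times. CCAAT was also present 4 times in 1 E2F3 window and 3 times in the E2F1 window. Of all windows, 34.6% held CCAAT. The windows of E2F4 and E2F6 held none of the spellings searched. The RB1 window lies inside the gene and does not cover its annotated start.

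DDX41 was measured first, since it checks the labels. It was at 117, 115 and 113 CPM (counts scaled to the library total, with TMM factors) in sh-Control, at 12.2, 12.9 and 9.95 in shDDX41 #1 and at 38.9, 39.9 and 42.5 in shDDX41 #2, so the groups did not overlap. The log2 fold changes were -3.29 and -1.51. Library totals ran from 16385238 to 20510032 counts. The myeloid markers PTPRC, SPI1, CD33, FLT3, MPO and LYZ were present in all 9 libraries, whereas markers of epithelium, fibroblasts, lymphocytes, red cells and the virus producer cells stayed at or below 0.688 CPM. Library D of shDDX41 #1 stood apart from its group, with a chi-square per degree of freedom over genes of 18 and 19.7 against libraries A and B, which were 2.94 apart. Library D was the lowest of its group for E2F1, E2F2, E2F3, E2F7, E2F8, RB1 and RBL1, and the highest for E2F5 and E2F6. By the same measure the sh-Control libraries were 8.23 to 10.4 apart, and those of shDDX41 #2 were 2.47 to 3.3 apart.

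With shDDX41 #1, 7 of the 10 members changed at an adjusted p under 0.05 (edgeR quasi-likelihood test, Benjamini-Hochberg over all genes tested), where 47.8% of all tested genes did. Of these, 6 were lower, against a background of 24.1% of tested genes, and E2F6 was higher, against 23.7%. Upper quartile scaling moved the split of all calls from 3010 higher of 6078 to 3849 higher of 6302 and left all 7 member calls in place. The 6 that fell were the activators E2F1 and E2F2, the atypical repressors E2F7 and E2F8, and the pocket proteins RB1 and RBL1. With shDDX41 #2, 4 members changed, where 25% of tested genes did: E2F5, E2F6 and RB1 were lower and E2F7 was higher, against 13.4% of tested genes lower and 11.6% higher. The medians over the 10 members were -0.69 and -0.08 on the log2 scale, beside 0.01 and -0.01 over all tested genes. The 2 comparisons share the sh-Control libraries. In bulk RNA, fewer cells in a given cell cycle phase and less transcript per cell cannot be told apart.

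**Figure D1:**
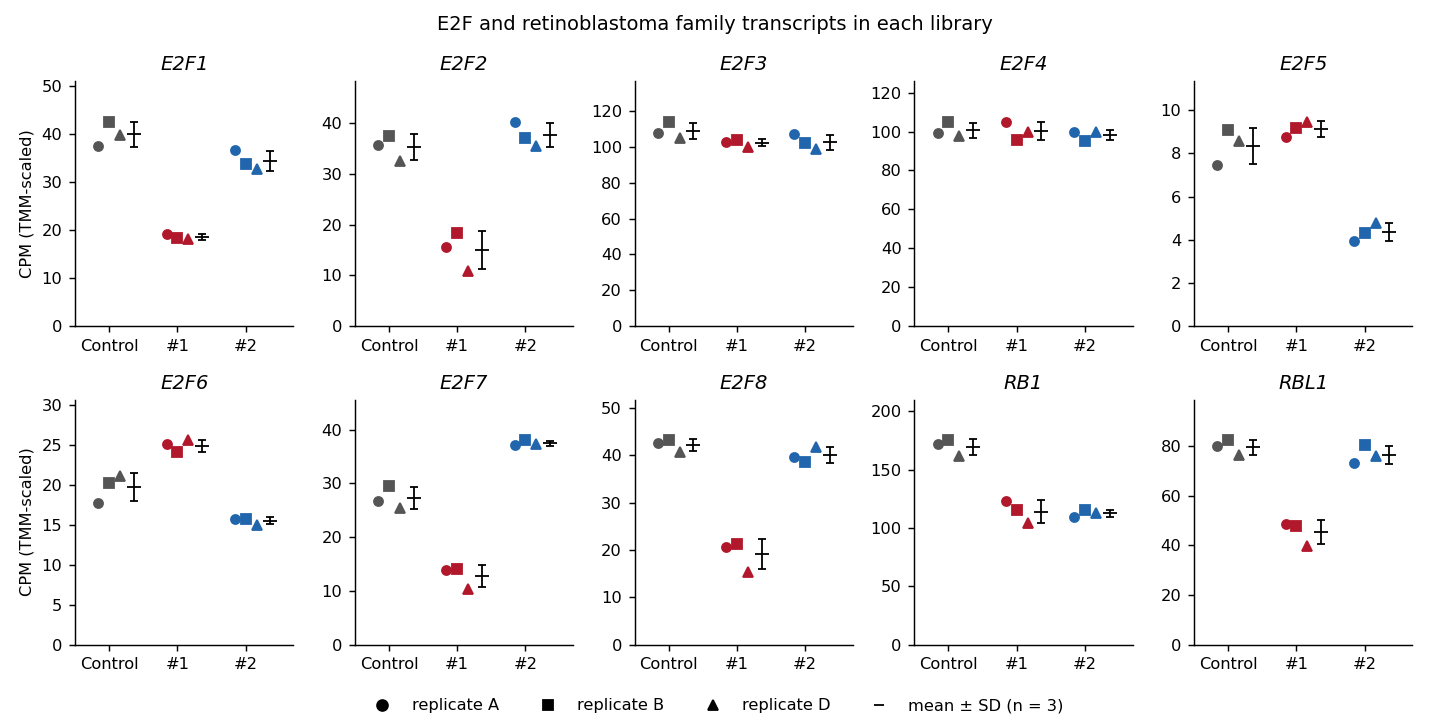
CPM of each member (vertical axis, TMM-scaled, from 0) in the 3 libraries of each group (points, shaped by replicate letter), with the mean and SD beside them (n = 3). E2F1, E2F2, E2F7, E2F8 and RBL1 sit lower in shDDX41 #1 than in both other groups, E2F5 is low in shDDX41 #2, and RB1 is low with both hairpins, near 114 and 112 CPM against 170.

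Among the activators, E2F1 (chr20:33675683-33686404, minus strand, GRCh38) fell with shDDX41 #1. It was at 37.4, 42.5 and 39.8 CPM in sh-Control, at 19.2, 18.4 and 18.1 in shDDX41 #1 and at 36.7, 33.8 and 32.6 in shDDX41 #2. The shDDX41 #1 libraries lay below all others and close together. The mean fell by 53.4%, from 39.9 ± 2.54 to 18.6 ± 0.528 CPM (SD, n = 3), a log2 fold change of -1.10 ± 0.0817 (SE) with an edgeR adjusted p of 7.6e-08. The shDDX41 #2 libraries also lay below every control library, at 34.4 ± 2.1 CPM, with a log2 fold change of -0.21 (95% interval -0.38 to -0.05) that did not pass the test (edgeR adjusted p = 0.0543). That value passed without sh-Control A (-0.26, edgeR adjusted p = 0.0371), without library D of shDDX41 #1 (edgeR adjusted p = 0.037) and in a fit of only the 6 libraries compared (edgeR adjusted p = 0.0447). It did not pass in the other settings, and with 1 library left out it ran from -0.27 to -0.16 (edgeR adjusted p up to 0.212).

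E2F2 (chr1:23506430-23531220, minus strand), the activator best known from blood cells, had the largest fold change of the family against sh-Control with shDDX41 #1. Its levels were 35.8, 37.6 and 32.5 CPM in sh-Control, 15.6, 18.4 and 10.9 in shDDX41 #1 and 40.3, 37.1 and 35.6 in shDDX41 #2. The control and shDDX41 #2 libraries overlapped, and the shDDX41 #1 libraries lay apart and were the most scattered. The fall was 57.5%, with a log2 fold change of -1.23 ± 0.136 (SE, edgeR adjusted p = 3.7e-06). Its 95% interval of -1.52 to -0.94 takes in the values of E2F1, E2F7 and E2F8, and leaving out 1 library at a time gave -1.41 to -1.04. With shDDX41 #2 the log2 fold change was 0.10 (95% interval -0.17 to 0.36, edgeR adjusted p = 0.612).

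E2F3 (chr6:20401906-20493715, plus strand), the third activator, was the exception in its class. It was at 108, 114 and 105 CPM in sh-Control, 103, 104 and 100 in shDDX41 #1 and 107, 102 and 98.7 in shDDX41 #2. The shDDX41 #1 libraries lay just under the controls, but the log2 fold change was -0.09 with both hairpins, and neither passed the test (95% intervals -0.23 to 0.04 and -0.22 to 0.04). Both intervals leave out a fall of the size seen in E2F1 and E2F2 with shDDX41 #1. The difference between E2F3 and the other activators was not tested as such.

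The repressors E2F4 and E2F5 are close relatives and bind the same pocket proteins. With shDDX41 #2, E2F5 passed the test and E2F4 did not, and the difference between them was not tested. E2F4 (chr16:67192169-67198918, plus strand) stayed between 95.3 and 105 CPM in all 9 libraries, and the groups overlapped throughout. Its log2 fold changes were -0.01 (95% interval -0.14 to 0.13) and -0.03 (95% interval -0.17 to 0.10), and their sign turned under upper quartile scaling. E2F5 (chr8:85177225-85217158, plus strand) had the lowest CPM of the members in each group, before any correction for length.

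E2F5 was at 7.44, 9.06 and 8.58 CPM in sh-Control, 8.74, 9.16 and 9.46 in shDDX41 #1 and 3.94, 4.31 and 4.79 in shDDX41 #2. Here the shDDX41 #2 libraries lay below all others, and the shDDX41 #1 libraries overlapped the controls. The fall with shDDX41 #2 was 48%, from 8.36 ± 0.833 to 4.35 ± 0.423 CPM (SD, n = 3), with a log2 fold change of -0.94 ± 0.135 (SE, edgeR adjusted p = 1.5e-04). With shDDX41 #1 it was 0.13 (95% interval -0.14 to 0.39, edgeR adjusted p = 0.43), and the hairpins differed by 1.07 (edgeR adjusted p = 1.3e-05). E2F5 rests on 73 to 163 counts a library and shares 443 exon bases with C8orf59 on the opposite strand. Whether the counting used strand is not stated, so E2F5 is uncertain. C8orf59, with 2270 to 3014 counts, had log2 fold changes of 0.04 and -0.06, neither past the test.

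E2F6 (chr2:11444375-11466177, minus strand), which lacks the pocket-protein binding region of its relatives, was the 1 member that rose with shDDX41 #1, and it fell with shDDX41 #2. It was at 17.8, 20.3 and 21.1 CPM in sh-Control, 25.1, 24.1 and 25.6 in shDDX41 #1 and 15.8, 15.8 and 15 in shDDX41 #2. The 3 groups did not overlap. The rise was 26.1% with shDDX41 #1 (log2 fold change 0.33 ± 0.0897 SE, edgeR adjusted p = 0.00639) and the fall 21.3% with shDDX41 #2 (-0.34 ± 0.0921 SE, edgeR adjusted p = 0.013). The hairpins differed by 0.68 (edgeR adjusted p = 2.4e-05). The fall with shDDX41 #2 lost its call without sh-Control D (-0.29, edgeR adjusted p = 0.0579) and without library D of shDDX41 #2 (-0.32, edgeR adjusted p = 0.0547). The annotation holds 4 processed pseudogenes named for E2F6, and how reads shared with them were counted is not stated.

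The atypical repressors are known to switch E2F targets off late in S phase. E2F7 (chr12:77021247-77065580, minus strand) was at 26.7, 29.5 and 25.5 CPM in sh-Control, 13.8, 14.1 and 10.3 in shDDX41 #1 and 37.1, 38 and 37.3 in shDDX41 #2. The groups did not overlap, and the control lay between the hairpins. E2F7 fell by 53.3% with shDDX41 #1 (log2 fold change -1.10 ± 0.11 SE, edgeR adjusted p = 1.4e-06) and rose by 37.6% with shDDX41 #2 (0.46 ± 0.1 SE, edgeR adjusted p = 0.00393). E2F7 differed between hairpins by -1.56 (edgeR adjusted p = 3.7e-08), the most negative value in the family for that contrast. The order of the groups was thus the reverse of that of E2F6.

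E2F8 (chr11:19224063-19241620, minus strand), which overlaps E2F7 in function, was at 42.7, 43.2 and 40.7 CPM in sh-Control, 20.7, 21.3 and 15.4 in shDDX41 #1 and 39.7, 38.6 and 41.9 in shDDX41 #2. Only the shDDX41 #1 libraries lay apart. The fall was 54.7% (log2 fold change -1.14 ± 0.102 SE, edgeR adjusted p = 4.4e-07). With shDDX41 #2 the log2 fold change was -0.07 (95% interval -0.28 to 0.13), an interval that does not reach the 0.46 of E2F7.

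RB1 (chr13:48303726-48599436, plus strand), the retinoblastoma tumor suppressor, was the 1 member called lower with both hairpins. It was at 172, 175 and 162 CPM in sh-Control, 123, 115 and 104 in shDDX41 #1 and 109, 115 and 113 in shDDX41 #2. The knockdown groups overlapped each other and lay below every control library. RB1 fell by 32.9% and 33.8%, with log2 fold changes of -0.58 ± 0.0698 and -0.60 ± 0.0697 (SE, edgeR adjusted p = 9.9e-06 and 2.8e-05). Between the hairpins RB1 differed by 0.02 (95% interval -0.13 to 0.17), although DDX41 differed between them by -1.79. LPAR6 and RCBTB2 overlap RB1 on the opposite strand without shared exon bases.

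RBL1 (chr20:36996349-37095995, minus strand), the pocket protein that partners the repressor E2Fs in cycling cells, changed with shDDX41 #1 alone among the tests against sh-Control. Its levels were 79.9, 82.3 and 76.3 CPM in sh-Control, 48.6, 47.7 and 39.6 in shDDX41 #1 and 73.1, 80.4 and 76.1 in shDDX41 #2. The control and shDDX41 #2 libraries overlapped. RBL1 fell by 43% with shDDX41 #1 (log2 fold change -0.81 ± 0.0803 SE, edgeR adjusted p = 1.3e-06), and with shDDX41 #2 its log2 fold change was -0.05 (95% interval -0.22 to 0.11). The direct test between the hairpins gave -0.76 (edgeR adjusted p = 2.5e-06).

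**Figure D2:**
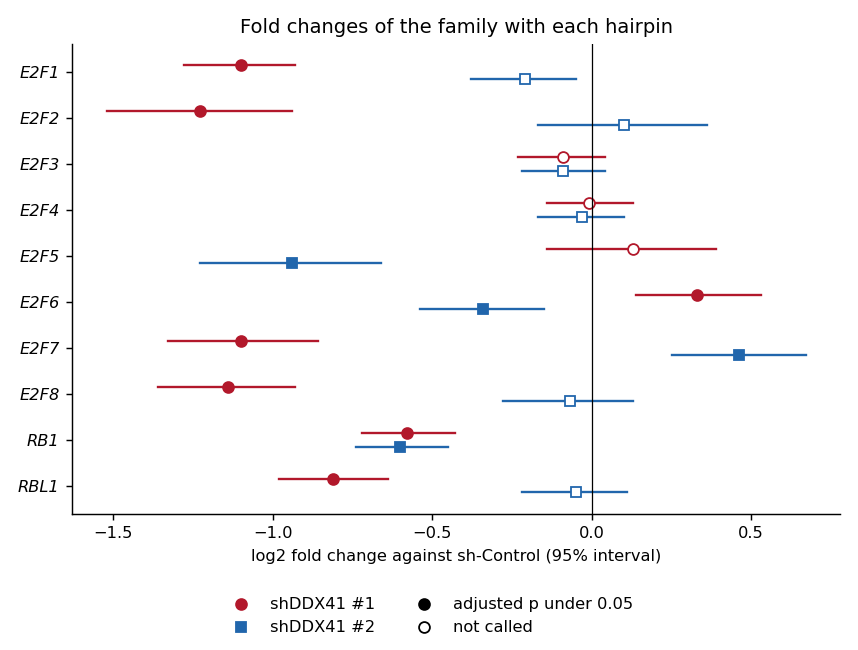
Log2 fold change of each member against sh-Control (horizontal axis) with its 95% interval from the edgeR fit over 9 libraries; circles are shDDX41 #1, squares are shDDX41 #2, and filled symbols passed an adjusted p of 0.05. The RB1 symbols lie together at -0.58 and -0.60, whereas those of E2F6 and E2F7 lie on opposite sides of 0.

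RBL2, the third pocket protein and no member of the 10, completes the class. It was at 119, 135 and 124 CPM in sh-Control, 95.4, 101 and 86.1 in shDDX41 #1 and 151, 145 and 146 in shDDX41 #2. The groups did not overlap. RBL2 fell with shDDX41 #1 (log2 fold change -0.42, edgeR adjusted p = 2.8e-04) and was called higher with shDDX41 #2 (0.23, edgeR adjusted p = 0.0306). The latter call was lost on library size scaling (edgeR adjusted p = 0.0802) and without sh-Control A (0.101), sh-Control D (0.0813) or library A (0.11), B (0.0765) or D (0.0803) of shDDX41 #2, all edgeR adjusted p-values.

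The hairpins differed directly in 7 of the 10 members, where 48.8% of tested genes differed. E2F1, E2F2, E2F7, E2F8 and RBL1 were lower in shDDX41 #1 than in shDDX41 #2, against 24.2% of tested genes, and E2F5 and E2F6 were higher, against 24.6%. E2F3, E2F4 and RB1 did not pass the test. For single genes, an exact two-sided permutation test of 3 against 3 libraries cannot give less than 0.1, the value of every member whose groups did not overlap. Such members numbered 8 against sh-Control with shDDX41 #1, where 53.1% of tested genes did not overlap, 5 with shDDX41 #2 (43.8%) and 7 between hairpins (57.7%).

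Levels of different genes can be compared only per length, here as CPM per kilobase of annotated exon (GENCODE 29, basic transcripts). In sh-Control the order ran from E2F4 (48 ± 1.89 CPM per kb, SD, n = 3) through RB1 (33.9), E2F3 (21.1), E2F1 (15.9), RBL1 (13.7), E2F8 (10.7), E2F2 (6.79), E2F6 (5.72) and E2F7 (4.75) to E2F5 (4.16). Of neighbours in this order, E2F7 and E2F5 were the pair whose library ranges overlapped. With the exons of all annotated transcripts the levels changed, to 28.1 CPM per kb for E2F4 and 1.41 for E2F5, and the order of the means stayed the same.

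The make-up of the E2F transcripts shifted with shDDX41 #1. The activators E2F1 to E2F3 held 37.4% ± 0.257 of the summed E2F level per kb in sh-Control, 31.1% ± 1.01 in shDDX41 #1 and 36.7% ± 1.36 in shDDX41 #2 (SD, n = 3). The share of E2F4 and E2F5 was 44.5% ± 0.068, 54.1% ± 1.67 and 44.2% ± 1.02. With the exons of all annotated transcripts, an alternative chosen after seeing the data, the activators were the larger class in sh-Control, at 47.1% ± 0.292 against 32% ± 0.106 for E2F4 and E2F5, and the classes came to 41.5% ± 0.979 and 40.9% ± 1.65 in shDDX41 #1. The share of E2F5 alone in sh-Control was 3.55% with basic transcripts and 1.53% with all. With either set the shDDX41 #1 libraries did not overlap the other groups for both classes. With basic transcripts E2F6 held 4.88%, 7.46% and 4.05%, and the atypical E2F7 and E2F8 held 13.2%, 7.3% and 15.1%. Within a share, 1 class rises when another falls, and the level of E2F4 and E2F5 itself was 52.2 ± 2.15 CPM per kb in sh-Control and 52.4 ± 2.15 in shDDX41 #1.

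**Figure D3:**
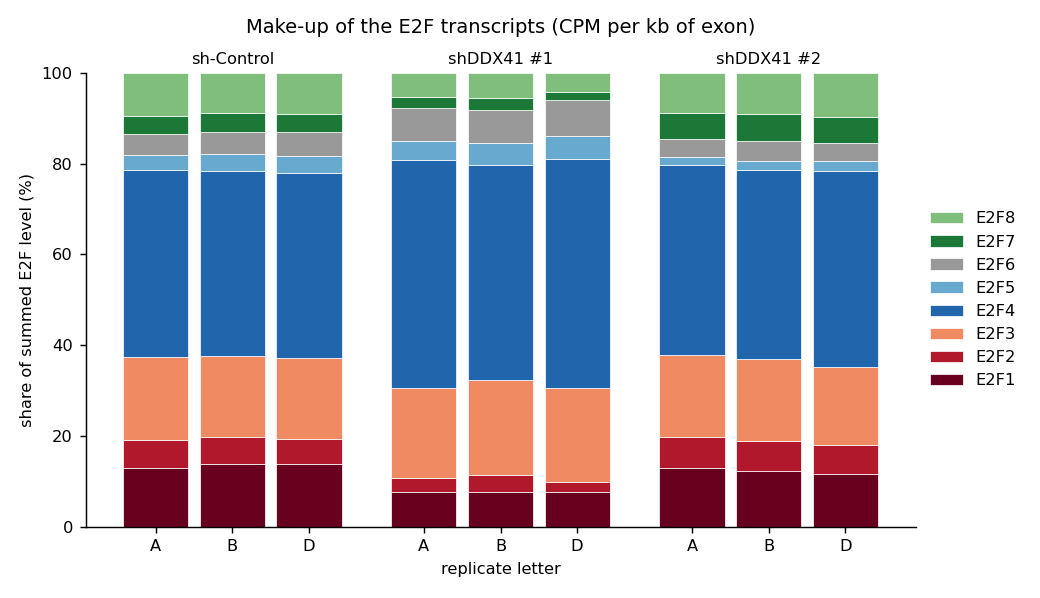
Share of each E2F gene in the summed E2F level (CPM per kb of exon, basic transcripts, vertical axis in percent) in each of the 9 libraries, grouped by hairpin. In the shDDX41 #1 bars the blue block of E2F4 and E2F5 is taller (mean 54.1% against 44.5% in sh-Control) and the green block of E2F7 and E2F8 is shorter (7.3% against 13.2%).

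The partners of the family were read from lists of genes compiled from general knowledge, but with earlier results of these data known. Counts over these lists, here and below, are therefore a description and no independent support. Some lists share genes. Of the DP partners, TFDP1 fell with shDDX41 #1 from 427 ± 10.4 to 295 ± 6.08 CPM (SD, n = 3, log2 fold change -0.53, edgeR adjusted p = 3.6e-06), and TFDP2 did not pass the test with either hairpin (0.16 and 0.22). The MuvB proteins join pocket proteins and E2F4 in resting cells, and join B-MYB and FOXM1 instead in dividing cells. Of the 8 MuvB and DREAM genes, 5 fell with shDDX41 #1 and 0 rose, where 24.1% of tested genes fell and 23.7% rose. MYBL2, which encodes B-MYB, was at 279, 257 and 227 CPM in sh-Control and 123, 137 and 114 in shDDX41 #1 (-1.03, edgeR adjusted p = 1.5e-07). FOXM1 (-0.80), LIN9 (-0.60), LIN54 (-0.40) and RBL2 were the others that fell. With shDDX41 #2, RBL2 was the 1 gene of the list called, where 25% of tested genes were. The median of the list was 0.00 against -0.41 with shDDX41 #1.

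Cyclins and kinases that phosphorylate pocket proteins, and a phosphatase that activates them, were lower in part with each hairpin. With shDDX41 #1, 5 of 9 fell and 0 rose, where 24.1% of tested genes fell and 23.7% rose. The 5 were cyclin E2 (CCNE2, -1.67), its kinase CDK2 (-1.05), cyclin E1 (CCNE1, -0.78), the activating phosphatase CDC25A (-0.72) and cyclin D3 (CCND3, -0.42). CCNE2 was at 62.5, 80.5 and 70.9 CPM in sh-Control, 22.4, 22 and 22.8 in shDDX41 #1 and 75.1, 74.8 and 71.4 in shDDX41 #2, so its libraries lay apart with shDDX41 #1 and overlapped the control with shDDX41 #2. CDC25A was low with both hairpins and lowest with shDDX41 #2, at 30.9, 32.3 and 32.8 CPM against 72.9, 81.2 and 78.6 in sh-Control (-1.28, edgeR adjusted p = 1.5e-08). With shDDX41 #2, CCND2 (-0.89) and CCNE1 (-0.63) also fell. CDK2 was called lower with shDDX41 #2 (-0.23, edgeR adjusted p = 0.0347) and lost the call under upper quartile scaling (0.0614) and without sh-Control B (0.125) or D (0.0787), library A of shDDX41 #1 (0.0516) or any library of shDDX41 #2 (0.0862, 0.108 and 0.0932, all edgeR adjusted p). CDK6 was higher with shDDX41 #2 (0.41, edgeR adjusted p = 0.0124), a call that was lost without sh-Control D (0.31, edgeR adjusted p = 0.0566).

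Of 7 CDK inhibitors, 4 were tested. CDKN2A and CDKN2B, which encode the INK4 proteins p16 and p15, had 0 counts in all 9 libraries, and CDKN1C was too low to test. CDKN1B, which encodes p27, was the 1 inhibitor that rose with both hairpins, from 83.8, 88.5 and 85.1 CPM to 121, 104 and 124 with shDDX41 #1 (0.44, edgeR adjusted p = 2.0e-04) and 109, 110 and 119 with shDDX41 #2 (0.39, edgeR adjusted p = 0.0014). CDKN2D fell with shDDX41 #1 (-0.60) and was higher with shDDX41 #2 (0.35, edgeR adjusted p = 0.0144), a call lost without library D of shDDX41 #2 (0.28, edgeR adjusted p = 0.0835). CDKN1A, which encodes p21, was called lower with shDDX41 #1 (-0.22, edgeR adjusted p = 0.0455), and the call was lost under upper quartile scaling (-0.15, edgeR adjusted p = 0.179), without sh-Control A (-0.15, 0.195), without library B (-0.19, 0.151) or D (-0.20, 0.0678) of shDDX41 #1 and without library D of shDDX41 #2 (-0.23, 0.0617). CDKN2C did not pass the test with either hairpin (-0.08 and -0.17).

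E2F6 works in the Polycomb complex PRC1.6. Of 12 genes of that complex, 2 rose and 4 fell with shDDX41 #1, and 1 rose and 3 fell with shDDX41 #2. Over all tested genes, 47.8% were called with shDDX41 #1 and 25% with shDDX41 #2. Calls with shDDX41 #1 were thus about as frequent in this list as elsewhere. MGA (0.47, edgeR adjusted p = 5.8e-04) and MAX (0.42, edgeR adjusted p = 1.4e-04), the DNA-binding pair of the complex, rose with shDDX41 #1. With shDDX41 #2, where E2F6 fell, MGA (0.11, edgeR adjusted p = 0.423) and MAX (-0.11, edgeR adjusted p = 0.278) did not pass the test. PCGF6, the defining subunit of the complex, fell with both hairpins (-0.66 and -0.54, edgeR adjusted p = 2.8e-05 and 4.8e-04). HDAC2 was lower with shDDX41 #2 (-0.29, edgeR adjusted p = 0.00667). The calls of YAF2 (-0.30), HDAC2 (-0.18) and HDAC1 (-0.16) with shDDX41 #1 and of CBX3 (-0.24) and RYBP (0.29) with shDDX41 #2 had edgeR adjusted p-values of 0.0126 to 0.0372.

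Several of these calls hung on the scaling or on single libraries. Upper quartile scaling took away the calls of YAF2 (-0.23), HDAC2 (-0.11) and HDAC1 (-0.08) with shDDX41 #1 (edgeR adjusted p = 0.0802, 0.222 and 0.267). HDAC2 and HDAC1 also lost them in a fit of only the 6 libraries compared (edgeR adjusted p = 0.0845 and 0.0858). YAF2 lost its call without sh-Control B (-0.27) or D (-0.30) and without library A (-0.31) or B (-0.25) of shDDX41 #1. HDAC2 with shDDX41 #1 lost it without sh-Control B or D, without library A or B of shDDX41 #1 and without any library of shDDX41 #2 (edgeR adjusted p up to 0.138). HDAC1 lost it without sh-Control B or D, without library A or B of shDDX41 #1 and without library A or D of shDDX41 #2 (edgeR adjusted p up to 0.127). CBX3 lost it without sh-Control D (-0.19) and without library A (-0.25) or D (-0.21) of shDDX41 #2, and RYBP without sh-Control D (0.24) or library A of shDDX41 #2 (0.25). Of 5 germline genes that E2F6 is known to silence, SMC1B alone was tested. It was at 0.777, 1.03 and 0.685 CPM in sh-Control, 0.784, 0.18 and 0.425 in shDDX41 #1 and 1.57, 2.38 and 1.27 in shDDX41 #2. Its call with shDDX41 #2 (1.08, edgeR adjusted p = 0.0398) was lost with DESeq2 (adjusted p = 0.0518) and without sh-Control A (1.04), B (1.26) or D (0.95) or library A (1.15) or B (0.78) of shDDX41 #2.

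Factors that RB1 is known to recruit to chromatin fell in 4 of 9 cases with shDDX41 #1 and rose in 0. Over all tested genes, 24.1% fell and 23.7% rose. The 4 that fell were the DNA methyltransferase DNMT1 (-1.14), the histone methyltransferase SUV39H1 (-0.77), the histone chaperone RBBP7 (-0.63) and the remodeler SMARCA2 (-0.49). With shDDX41 #2, KDM5A was the 1 called, where 25% of tested genes were, and it was higher (0.23, edgeR adjusted p = 0.0171). The call was lost without sh-Control D (0.19, edgeR adjusted p = 0.0772) and without library B (0.22, 0.0687) or D (0.22, 0.0681) of shDDX41 #2.

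Genes that govern the destruction of E2F proteins, among them the ubiquitin ligase parts SKP2, CKS1B and CCNF and the APC/C regulators FZR1, CDC20 and FBXO5, fell in 6 of 6 cases with shDDX41 #1. Over all tested genes, 24.1% fell. FBXO5 went from 99, 104 and 104 CPM to 53.7, 56 and 51.1 (-0.93, edgeR adjusted p = 3.9e-08). FZR1 (-0.27, edgeR adjusted p = 0.0236) lost its call without sh-Control A (-0.22) or B (-0.28) and without library D of shDDX41 #1 (-0.16). The call was also lost under upper quartile scaling (-0.19, edgeR adjusted p = 0.0866). With shDDX41 #2, FBXO5 (-0.22), SKP2 (-0.27) and CKS1B (-0.23) were called lower, where 13.4% of tested genes were. Each of the 3 lost its call without sh-Control B (-0.20, -0.23 and -0.24) and without sh-Control D (-0.21, -0.24 and -0.17). The same held without library D of shDDX41 #2 (-0.20, -0.27 and -0.18). FBXO5 also lost its call without library A of shDDX41 #2 (-0.23), and SKP2 (-0.22) and CKS1B (-0.23) without library B. Upper quartile scaling took away the calls of SKP2 (-0.23, edgeR adjusted p = 0.0514) and CKS1B (-0.20, edgeR adjusted p = 0.071) with shDDX41 #2.

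A further list held 41 genes known as E2F targets, of which CCNE1, CCNE2, CDC25A, MYBL2 and DNMT1 are also counted above. E2F proteins and their binding were not measured. All 41 passed the test as lower with shDDX41 #1, where 24.1% of tested genes did. Their median log2 fold change was -0.83 against 0.01 over all tested genes. RRM2, a subunit of ribonucleotide reductase, was at 354, 356 and 332 CPM in sh-Control, 118, 122 and 97.6 in shDDX41 #1 and 308, 308 and 293 in shDDX41 #2 (-1.63 with shDDX41 #1, edgeR adjusted p = 1.6e-09). CDC45, part of the replicative helicase, fell by 1.44 on the log2 scale.

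With shDDX41 #2, 8 of the 41 targets were lower and 1 was higher, with a median of -0.11. Over all tested genes, 25% were called with this hairpin, 13.4% lower and 11.6% higher. The count of lower targets was 5 without sh-Control B and without library B of shDDX41 #2, and 12 without library D of shDDX41 #1. MCM6, a helicase subunit, was at 357, 364 and 377 CPM in sh-Control, 235, 244 and 239 in shDDX41 #1 and 190, 193 and 173 in shDDX41 #2 (-0.98 with shDDX41 #2, edgeR adjusted p = 7.6e-08). Like CDC25A it was lowest with shDDX41 #2. Between the hairpins 38 targets were lower in shDDX41 #1 and 2 were higher, where 24.2% of tested genes were lower and 24.6% higher. The E2F letters shown in the promoters above were present in 19 of the 35 target genes with a window, and in 20 of their 51 windows (39.2%).

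**Figure D4:**
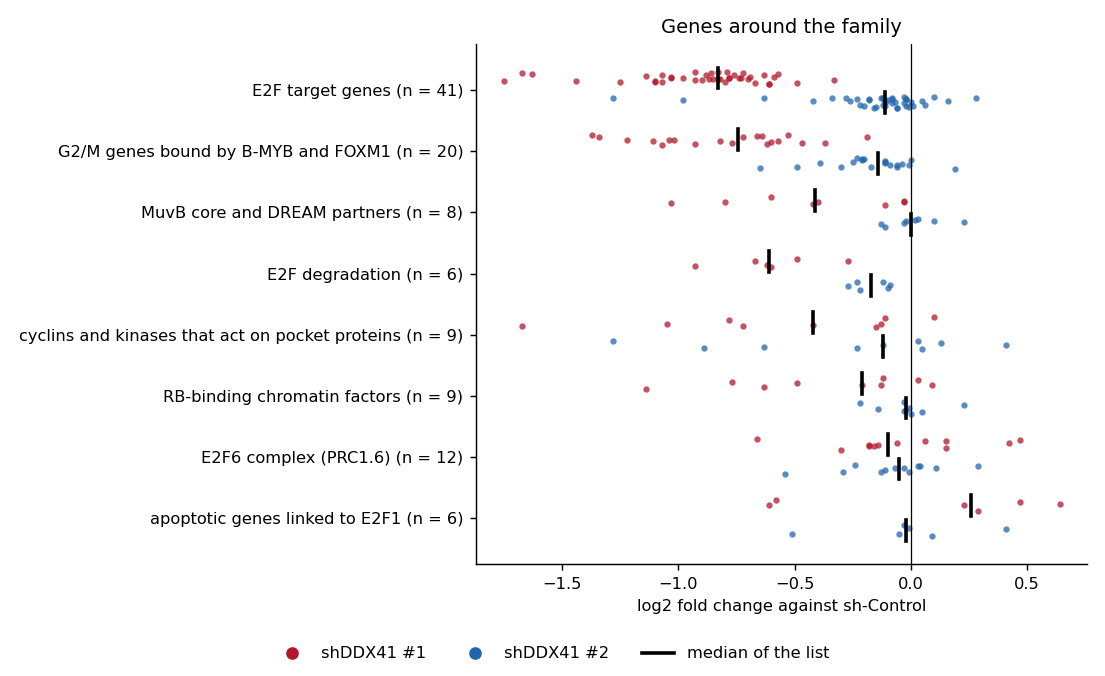
Log2 fold change against sh-Control (horizontal axis) of each tested gene in 8 lists around the family, red for shDDX41 #1 and blue for shDDX41 #2, with the median of each list as a black bar; lists share some genes. All 41 E2F targets lie left of 0 with shDDX41 #1 (median -0.83), whereas with shDDX41 #2 they centre on -0.11 and the 3 lowest are CDC25A, MCM6 and CCNE1.

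Of 20 G2/M genes bound by B-MYB and FOXM1, 20 fell with shDDX41 #1, with a median of -0.74, where 24.1% of tested genes fell. BUB1B (-1.34), CDK1 (-1.37) and BUB1 (-1.11), which act in mitotic entry and the spindle checkpoint, had the smallest adjusted p-values. With shDDX41 #2, 6 fell and 0 rose, where 13.4% of tested genes fell and 11.6% rose. The median was -0.14, and CKS2 (-0.39), KIF23 (-0.65) and AURKA (-0.49) led the list.

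Apoptotic genes linked to E2F1 moved both ways with shDDX41 #1, where 4 of the 6 tested rose and 2 fell. Over all tested genes, 23.7% rose and 24.1% fell. BBC3 (0.64), BCL2L11 (0.47), APAF1 (0.29) and PMAIP1 (0.23), which promote cell death, were higher. The call of PMAIP1 (edgeR adjusted p = 0.0332) was lost without sh-Control A (0.18) and without library D of shDDX41 #1 (0.19). With shDDX41 #2, BCL2L11 rose (0.41, edgeR adjusted p = 0.0028) and PMAIP1 fell (-0.51, edgeR adjusted p = 6.4e-04). TP73 was too low to test.

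Across the 9 libraries the members fell into patterns, given here as a description, since the points share groups. The Pearson correlation of log2 CPM was 0.992 between E2F8 and RBL1, 0.983 between E2F2 and E2F8 and 0.961 between E2F1 and E2F8. E2F6 ran against E2F7 (-0.937) and with E2F5 (0.891), and RB1 reached at most 0.75, with E2F3. The gene outside the family most like both E2F8 (0.9964) and RBL1 (0.9977) was POLQ, a DNA polymerase of end joining, followed for E2F8 by NCAPD3 and BRIP1 and for RBL1 by ARHGEF6 and LMAN1. For E2F1 the nearest were CACNA2D4, CENPU and GARS, for E2F2 ITPR3, WHSC1 and IPO9, and for E2F7 MBP, LYN and AIM1 (0.9921 to 0.9956).

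HPDL, RYK and NUDT19 were nearest to E2F5, NMD3, SYNGR3 and FAM203A to E2F6, and IPO7, SLAIN2 and CREB3L2 to RB1 (0.9822 to 0.9929). E2F3, with SPIN4, MICA and LDLRAD3, and E2F4, with FAM83H-AS1, U2AF1 and BMS1P6, had weaker nearest patterns (0.8295 to 0.9196), and both varied little between libraries.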

How the data were processed

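RNA-seq counts of 9 MOLM13 libraries were used. The authors deposited whole-number counts per gene, not normalized, from poly(A)-selected libraries, which the labels describe as stranded and the study's methods as a kit without that property. The submitters' processing notes name FastQC 0.11.7, HISAT2 2.0.5, featureCounts 1.5.2 and the builds hg38 and mm10. The annotation, the strand setting and the handling of reads that map to several genes are not given in the sources used here. Groups were taken from the labels.

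The fit used edgeR 4.0.16 (R 4.3.3): filterByExpr with a minimum count of 10, TMM factors of 0.963 to 1.02, a quasi-likelihood fit with 1 coefficient per group over 9 libraries, two-sided tests, Benjamini-Hochberg adjustment over 12712 genes per contrast, and calls at 0.05. The SE is the size of a log2 fold change divided by the square root of F. The biological coefficient of variation was 0.0768, at a depth of 16385238 to 20510032 counts. On simulated counts of 12578 genes for shDDX41 #1 against sh-Control, 97 genes were changed by 0.5 on the log2 scale and 100 by 1. Of these, 66% and 89% were called, with 17 unchanged genes called. Many more genes were called in the data (6078 of 12712), so these rates may not carry over to them. Alternatives used DESeq2 1.42.0, limma 3.58.1, other scalings, filters, thresholds and left-out libraries.

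The members and lists were chosen with earlier results of these data known. Named were all members, the 3 called genes of each list with the smallest adjusted p in each direction against sh-Control, lists of at most 9 genes whole, and the 3 genes most correlated with each member. Some list genes that this rule selects were tested and counted with the others but are not reported here. HDAC1 was named after its values were seen, to complete a count. The E2F letters, exon lengths and coordinates come from RefSeq (GRCh38.p14) and GENCODE 29 (GRCh38).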

Additional observations from a re-analysis of the deposited data

How the results depend on the processing

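The 7 member calls with shDDX41 #1 and the 7 between hairpins held under every alternative run, and members called with shDDX41 #2 numbered 3 to 5. E2F targets called lower with shDDX41 #2 numbered 8, 5 at an adjusted p under 0.01, and 5 to 12 when 1 library was left out. Values near 0 turned sign. E2F3 between hairpins was 0.04 with upper quartile factors, 0.01 with library size only, 0.00 with at least 10 counts in every library, and -0.03 to 0.03 with 1 library left out. E2F4 with shDDX41 #1 was 0.07 with upper quartile factors, 0.01 with at least 10 counts in every library, and -0.04 to 0.03. E2F4 with shDDX41 #2 was 0.00 with upper quartile factors and -0.06 to 0.00 with 1 library left out, and between hairpins -0.01 to 0.06. RB1 between hairpins was -0.04 to 0.09. The cause of these shifts was not tested. Libraries that share a letter had correlated deviations of -0.0574 to 0.243, over 0.1 in 2 of 9 pairs, so letters were not taken to pair samples. Each sh-Control library correlated best with the shDDX41 #1 library of its own letter (0.0725, 0.158 and 0.243), a hint from the data. Among the shDDX41 #2 libraries the same held for sh-Control A alone (0.0155), and the same-letter values of sh-Control B and D were -0.0574 and -0.00811. With the letter as a replicate block, members called numbered 7, 4 and 7 and E2F targets lower 41, 11 and 38. E2F5 had the fewest counts of the members, 73 to 163 a library.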
